A study of Ovis aries with 8 samples.

Results

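The genes described here encode heterotrimeric G proteins, the RGS proteins that switch them off and the G protein-coupled receptor kinases (GRKs). They are the rows of the deposited array table whose symbol is RGS, GNA, GNG or GRK followed by its member number or letter, or GNB1 to GNB5. The rule used symbols alone and no measured value. It found 51 genes among 15380 rows. These were 14 Gα genes, 5 Gβ genes, 8 Gγ genes, 20 RGS genes and 4 GRK genes. The cells were pulmonary artery endothelial cells, the lining cells of the arteries that lead to the lungs, grown in culture from near-term sheep fetuses (Ovis aries), with 1 array per culture. The 4 control cultures came from fetuses labelled normothermic, and the 4 others from fetuses labelled hyperthermic as a model of intrauterine growth restriction (IUGR). All were grown in DMEM with 10% serum, and the labels name no agent, allele, breed or age in days. The controls were at passage 5 or 6, against 3 or 4 for the IUGR cultures, so growth restriction, hyperthermia and passage cannot be told apart.

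A G protein is a trimer of a Gα subunit that binds guanine nucleotide and a tightly paired Gβγ dimer. A receptor activated by its ligand makes Gα exchange GDP for GTP, Gα and Gβγ separate, and each acts on enzymes and channels. The Gαs class stimulates adenylyl cyclase, the Gαi class inhibits it, the Gαq class activates phospholipase C beta, and the Gα12 class activates exchange factors for RhoA. RGS proteins speed the hydrolysis of GTP by Gα and so end the signal, while GRKs phosphorylate active receptors, which then bind arrestins. In endothelium these proteins carry the signals of thrombin, endothelin, sphingosine 1-phosphate and chemokines that set barrier tightness, nitric oxide release and migration.

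Values below are log2 intensities unless a sum of intensities is named. The sign ± gives the SD of a group of 4 arrays, or an SE where so marked. Intensities under 5.89 were raised to that floor, 2.56 on the log2 scale, so differences of dim genes are understated. An upper bound for background was taken from 127 olfactory receptor genes, whose 95th percentile was 3.44. IUGR was compared with control in 1 limma fit over 14577 genes, with Benjamini-Hochberg adjustment over all of them and a threshold of 0.05. Array medians were 37.7 to 41.1 intensity units. Precision is limited by the number of arrays. The arrays differed within groups. All 13 measured endothelial markers lay above 3.44 in 6 arrays, but only 8 of 13 did in IUGR replicates 2 and 4, where CDH5, the VE-cadherin gene, was 2.85 and 3.49. The summed intensity of the endothelial markers was 5373 to 12470 in control and 225 to 5868 in IUGR. The sum over 15 fibroblast markers was 900 to 16582 in control, highest in control replicate 4, and 12846 to 25784 in IUGR. The sum over 9 mesothelial and epithelial markers was 139 to 195 in control, 163 in IUGR replicates 1 and 3, and 8909 and 13671 in IUGR replicates 2 and 4. In whole cultures, fewer cells of a type and less RNA per cell cannot be told apart.

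None of the 51 genes passed the threshold, against 0.0686% of all genes tested (10 genes). The nearest was GRK5, a receptor kinase, at an adjusted p of 0.0897. At an unadjusted p under 0.05 there were 7 of 51 members (13.7%), against 15.9% of all genes. Of these, 2 were higher in IUGR cultures (GNAI1 and RGS2; background 8.2%) and 5 lower (GRK5, GNG11, GNB5, RGS19 and GNB2; background 7.68%). The groups did not overlap for 1 member, GRK5, against 8.65% of all genes and 4.12% in the lower direction. Both counts were thus no larger, as shares, than those over all genes. The group mean was lower in IUGR for 29 members, higher for 17 and the same for 5 that lay at the floor on every array. Of all 14577 genes it was lower for 7196, higher for 6959 and the same for 422. The median difference was -0.13 over the 51 members and 0.00 over all genes.

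**Figure D1:**
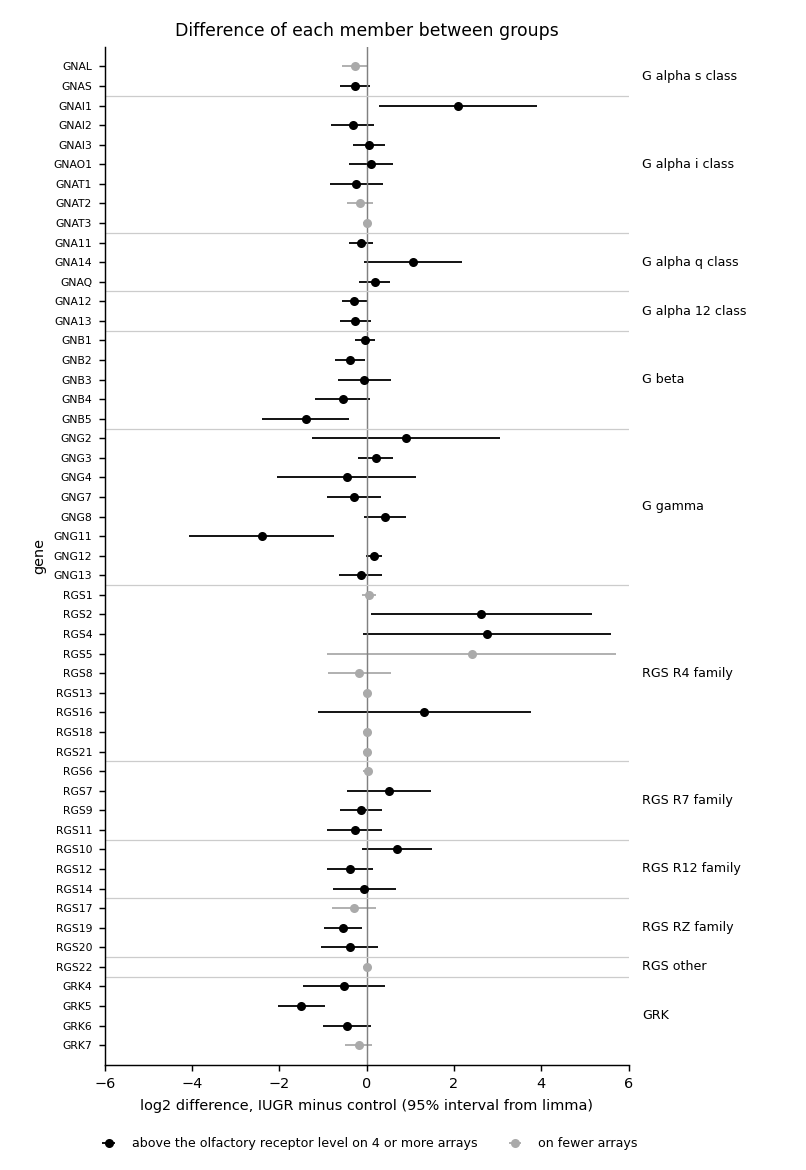
The horizontal axis is the log2 difference between IUGR and control with its 95% interval from limma, and the vertical axis lists the 51 genes by class. Black points lie above the olfactory receptor level on 4 or more arrays, and the interval of GRK5, from -2.04 to -0.96, is the one farthest from 0 among the receptor kinases.

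Not all members were above background. There were 27 above 3.44 on all 8 arrays, 14 on some arrays and 10 on none. Of all 14577 genes, 9769 were above it on all 8 arrays, 2870 on some and 1938 on none. The 10 members were GNAL, GNAT2, GNAT3, RGS1, RGS6, RGS13, RGS18, RGS21, RGS22 and GRK7. Many of them are known from other tissues. GNAL is the olfactory Gα, GNAT2 and GRK7 belong to cone photoreceptors, GNAT3 to taste cells, and RGS1, RGS13 and RGS18 to blood cells. RGS13, RGS18, RGS21, RGS22 and GNAT3 were at the floor on every array. PTPRC, the pan-leukocyte gene, was also at or below 3.44 on every array, as were MS4A1 and TYROBP. Of the 10 leukocyte markers, 4 lay above 3.44 on all 8 arrays and 3 on some arrays. Differences of the 10 members listed above were -0.26 to 0.06 and are differences between background values.

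Some members varied widely from array to array. The range over the 8 arrays exceeded 2 log2 units for 11 of 51 members (21.6%), against 17.2% of all genes. They were GNAI1, GNA14, GNB5, GNG2, GNG4, GNG11, RGS2, RGS4, RGS5, RGS16 and GRK5.

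**Figure D2:**
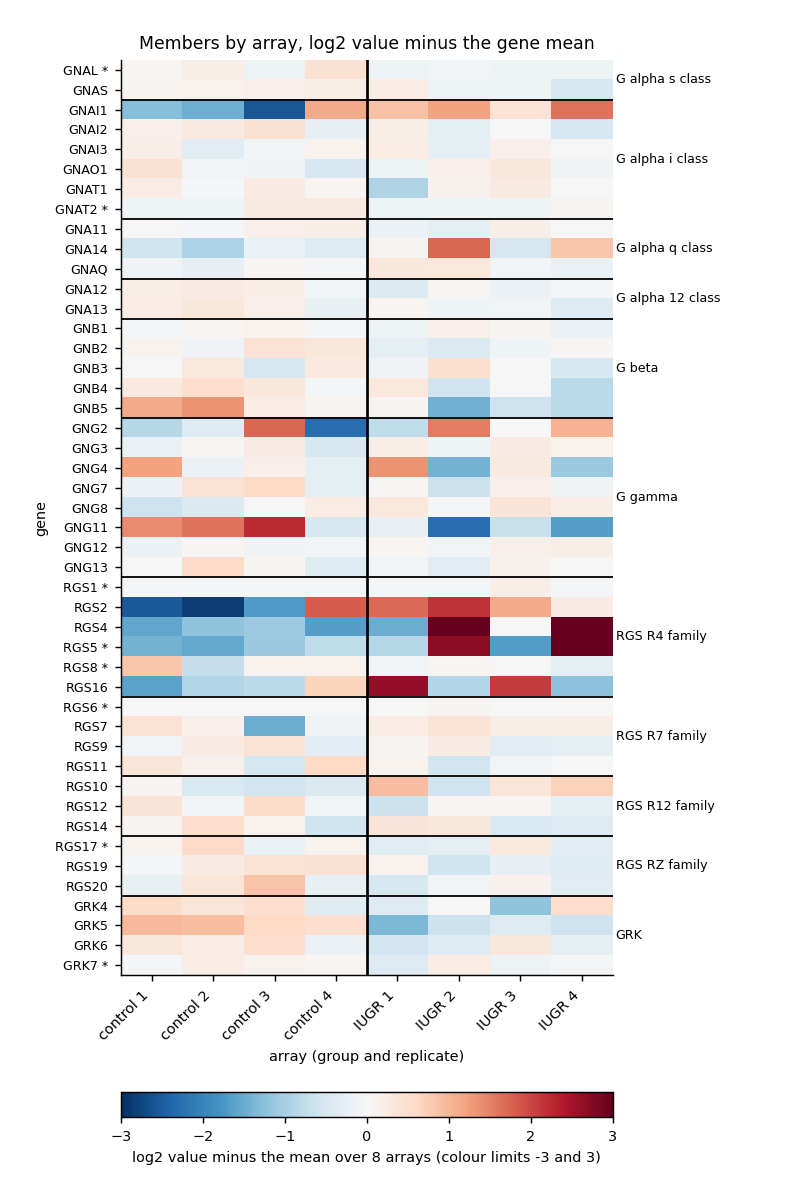
Each row is a gene and each column an array, and colour gives the log2 value minus the mean of that gene over the 8 arrays, with limits at -3 and 3. An asterisk marks genes above the olfactory receptor level on fewer than 4 arrays, the 5 genes at the floor everywhere are left out, and RGS4 and RGS5 have the widest ranges within the IUGR group, 5.50 and 6.33.

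Among the receptor kinases, GRK5 was lower in every IUGR culture. GRK5 is a membrane-bound kinase that desensitises receptors without needing Gβγ. Its values were 6.28, 6.23, 5.91 and 5.81 in control replicates 1 to 4. In IUGR replicates 1 to 4 they were 3.95, 4.67, 4.91 and 4.70. The lowest control lay 0.89 above the highest IUGR culture, and all 8 values were above background. The group means were 6.06 ± 0.23 and 4.56 ± 0.42 (n = 4 each), a difference of -1.50 ± 0.23 (SE), or 2.83-fold lower on the linear scale. In limma the adjusted p was 0.0897 (unadjusted p = 0.000313). It was 0.0390 without control replicate 4, where 369 of 14577 genes passed, and 0.0738 to 0.233 with any other 1 array left out.

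The GRK5 difference was also computed without the 2 arrays of lowest endothelial marker sums and with covariates. Without IUGR replicates 2 and 4 it was -1.62 ± 0.31 (SE; limma adjusted p = 0.232), and with the endothelial score (the mean centred log2 value of the endothelial markers) added to the fit it was -1.50 ± 0.38 (SE; limma adjusted p = 0.556). The title numbers begin with 09 in both groups for control replicate 1 and IUGR replicates 2 and 3. What that number marks is not stated. Within it GRK5 was 6.28 in the control and 4.67 and 4.91 in the IUGR cultures. With passage as a covariate the difference was -1.69 ± 0.74 (SE; limma adjusted p = 0.614), with passage and group nearly inseparable. Of all 14577 genes, 0 passed without IUGR replicates 2 and 4, 0 with the endothelial score and 0 with passage as a covariate. The endothelial score was 0.71 to 1.95 in control and -3.27 to 0.81 in IUGR arrays. Fibroblast marker sums were 12846 or more in every IUGR array, 16582 in control replicate 4 and 900 to 2118 in the other controls. GRK5 in control replicate 4 was 5.81, beside 5.91 in control replicate 3 and 3.95 to 4.91 in IUGR. The cause of the GRK5 difference was not tested.

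The groups overlapped for the other kinases above background. GRK6, a kinase related to GRK5, was 5.32 ± 0.29 in control and 4.87 ± 0.40 in IUGR. GRK4, best known from testis and kidney, was 5.59 ± 0.43 and 5.06 ± 0.73. The kinases that Gβγ recruits appear in the table under their older names. ADRBK1, now GRK2, was 7.64 ± 0.31 and 7.29 ± 0.20. ADRBK2, now GRK3, was 4.15, 3.88, 3.26 and 5.97 in control replicates 1 to 4 and 4.90 to 7.04 in IUGR, with a higher mean in IUGR (5.81 against 4.31) and an overlap through control replicate 4.

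The Gα genes of broad use differed little between the groups. GNAS, the stimulatory Gαs, was 11.04 ± 0.05 in control and 10.76 ± 0.29 in IUGR. The 95% interval of its difference was -0.62 to 0.07. GNAI2, a widely used inhibitory Gα, was 10.30 ± 0.30 and 9.98 ± 0.32, with an interval of -0.81 to 0.17. GNAI3, of the same class, was 7.87 ± 0.23 and 7.92 ± 0.23, with an interval of -0.33 to 0.42. These intervals leave out a change of more than 1 log2 unit in either direction.

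GNAQ and GNA11 carry the thrombin and endothelin signals to phospholipase C. In control and IUGR cultures GNAQ was 7.03 ± 0.12 and 7.21 ± 0.28, while GNA11 was 8.97 ± 0.12 and 8.83 ± 0.20. The intervals of the differences were -0.17 to 0.53 for GNAQ and -0.41 to 0.13 for GNA11. GNA12, which couples receptors to RhoA, was 8.45, 8.47, 8.44 and 8.16 in control replicates 1 to 4. In IUGR replicates 1 to 4 it was 7.83, 8.29, 8.05 and 8.21. Control replicate 4 lay below IUGR replicates 2 and 4, and the other controls lay above every IUGR culture. The difference was -0.29 ± 0.12 (SE; limma adjusted p = 0.323). GNA13, its partner, was 7.89 ± 0.24 and 7.62 ± 0.19 (limma adjusted p = 0.439).

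GNAI1 was the Gα gene that varied most. It encodes an inhibitory Gα that serves chemokine and lipid receptors. It was 5.11, 4.93, 3.81 and 7.51 in control replicates 1 to 4, and 7.26, 7.60, 6.82 and 8.01 in IUGR replicates 1 to 4. Control replicate 4 lay within the IUGR range and the other controls at least 1.71 below it. The difference was 2.08 ± 0.76 (SE), with a limma adjusted p of 0.259, and 2.81 without control replicate 4 (adjusted p = 0.0345). Leaving out that highest control had to raise the difference, and 369 of 14577 genes passed there. With any other 1 array left out the limma adjusted p was 0.274 to 0.463. With the endothelial score added to the fit the difference was 0.88 ± 1.09 (SE; limma adjusted p = 0.920). The fibroblast marker sum was likewise low in control replicates 1 to 3, at 900 to 2118, and 12846 or more in the other 5 arrays. Its part in the GNAI1 values was not tested.

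GNA14, a Gαq class member, was near background in control cultures, at 3.08, 2.72, 3.48 and 3.29. It was 3.75, 5.39, 3.17 and 4.51 in IUGR replicates 1 to 4, highest in the arrays with the mesothelial and epithelial markers (8909 and 13671 summed intensity units in replicates 2 and 4). The part of those markers was not tested. The difference was 1.07 ± 0.47 (SE; limma adjusted p = 0.335). It was 0.32 ± 0.28 (SE) without IUGR replicates 2 and 4 and -0.21 ± 0.39 (SE) with the endothelial score added to the fit. GNAO1, a neuronal inhibitory Gα, and GNAT1, the rod transducin, lay around background, at 3.50 ± 0.38 and 3.69 ± 0.14 in control and 3.61 ± 0.23 and 3.46 ± 0.53 in IUGR.

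All 5 Gβ genes had lower group means in IUGR cultures and none passed the threshold. GNB5 is the divergent Gβ that pairs with the R7 family of RGS proteins in place of a Gγ. It was 6.59, 6.80, 5.68 and 5.54 in control replicates 1 to 4, and 5.54, 4.00, 4.83 and 4.66 in IUGR replicates 1 to 4. The groups overlapped because IUGR replicate 1 lay just above control replicate 4. The difference was -1.39 ± 0.42 (SE), or 2.63-fold lower, with a limma adjusted p of 0.190. It was -0.97 without IUGR replicates 2 and 4 and -0.69 with the endothelial score added to the fit. Passage as a covariate moved it the other way, to -3.38 ± 1.08 (SE; limma adjusted p = 0.562).

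GNB2, a common Gβ, was 8.58, 8.38, 8.90 and 8.82 in control replicates 1 to 4, and 8.22, 8.07, 8.34 and 8.51 in IUGR replicates 1 to 4. Only IUGR replicate 4 reached the control range. The difference was -0.39 ± 0.15 (SE; limma adjusted p = 0.274). GNB4 was 9.09 ± 0.22 and 8.53 ± 0.52 in control and IUGR cultures, lowest at 8.21 and 8.00 in IUGR replicates 2 and 4. GNB1, the most widely used Gβ, was 10.48 ± 0.08 and 10.43 ± 0.17, with an interval of the difference of -0.27 to 0.18. GNB3 was 5.59 ± 0.38 and 5.53 ± 0.40.

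Of the 8 Gγ genes, GNG11 differed most. It encodes a farnesylated Gγ that is prominent in endothelial cells and platelets. It was 8.09, 8.30, 8.91 and 6.18 in control replicates 1 to 4. In IUGR replicates 1 to 4 it was 6.44, 4.39, 6.00 and 5.01. Control replicate 4 lay below IUGR replicate 1, and the other controls lay at least 1.65 above every IUGR culture. The difference was -2.41 ± 0.70 (SE), or 5.31-fold lower, with a limma adjusted p of 0.182.

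Endothelial markers differed between these arrays as well. The 3 arrays with the highest GNG11 had endothelial marker sums of 9888 to 12470, and those with the lowest, IUGR replicates 2 and 4, had sums of 288 and 225. The arrays between them did not follow that order. GNG11 was 6.44 in IUGR replicate 1, 6.18 in control replicate 4 and 6.00 in IUGR replicate 3, with sums of 2825, 5373 and 5868. The part of the endothelial markers in the GNG11 values was not tested. With the endothelial score added to the fit the GNG11 difference was -0.88 ± 0.83 (SE; limma adjusted p = 0.881). Without IUGR replicates 2 and 4 it was -1.65 ± 0.81 (SE; limma adjusted p = 0.495), and with passage as a covariate it was -4.56 ± 2.12 (SE; limma adjusted p = 0.619).

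The groups overlapped for the remaining Gγ genes, and none had an unadjusted p under 0.05. GNG2, a common Gγ, was 8.46, 8.92, 11.02 and 7.02 in control replicates 1 to 4, a range of 4.00 within 1 group. In IUGR replicates 1 to 4 it was 8.55, 10.83, 9.31 and 10.34. GNG4 was 6.98, 5.58, 5.91 and 5.50 in control and 7.10, 4.35, 6.02 and 4.65 in IUGR, lowest in IUGR replicates 2 and 4. GNG12, a broadly expressed Gγ, was 8.55 ± 0.09 and 8.72 ± 0.12, and GNG8 was 5.19 ± 0.37 and 5.61 ± 0.19. GNG3, GNG7 and GNG13 had group means of 3.44 to 3.99, close to background.

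**Figure D3:**
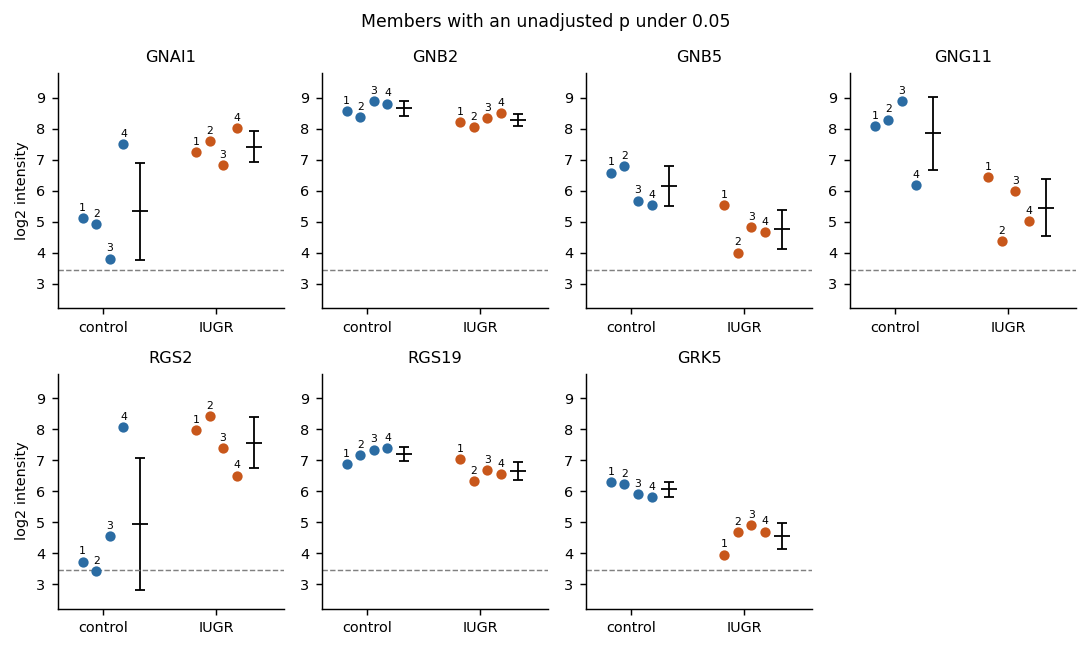
The vertical axes give log2 intensity for the 7 members with an unadjusted p under 0.05. Points are arrays numbered by replicate, black marks are group means with SD, and the dashed line is the olfactory receptor level of 3.44. Control replicate 4 lies in the IUGR range for GNAI1 and RGS2, and the groups are apart for GRK5 alone.

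The R4 family holds small RGS proteins that act on the Gαi and Gαq classes. Of its 9 measured members, 4 lay at or below background on every array (RGS1, RGS13, RGS18 and RGS21). RGS8, a brain member, exceeded 3.44 in control replicate 1 alone, at 4.09. The other 4 (RGS2, RGS4, RGS5 and RGS16) all had higher group means in IUGR, with high values in different arrays.

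RGS2 limits Gαq signalling and is known to restrain vascular constriction. It was 3.72, 3.42, 4.55 and 8.07 in control replicates 1 to 4, and 7.96, 8.42, 7.38 and 6.50 in IUGR replicates 1 to 4. As for GNAI1, control replicate 4 lay within the IUGR range while the other controls lay at least 1.95 below it. The difference was 2.63 ± 1.07 (SE), with a limma adjusted p of 0.304, and 3.67 without control replicate 4 (adjusted p = 0.0314). Control replicate 4 was the highest control, so leaving it out had to raise the difference, and 369 of 14577 genes passed there. With any other 1 array left out the limma adjusted p was 0.341 to 0.519. Fibroblast markers were high in the 5 arrays with high RGS2, and their part in the RGS2 values was not tested. Without IUGR replicates 2 and 4 the RGS2 difference was 2.73 ± 1.46 (SE; limma adjusted p = 0.525), and with passage as a covariate it was 6.08 ± 3.20 (SE; limma adjusted p = 0.642).

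RGS4 and RGS5 were high in IUGR replicates 2 and 4. RGS4, which acts on Gαi and Gαq, was 3.20, 3.56, 3.66 and 3.11 in control replicates 1 to 4, at or near background. In IUGR replicates 1 to 4 it was 3.27, 7.75, 4.75 and 8.77. RGS5, widely used as a pericyte marker, was 2.84, 2.73, 3.14 and 3.49 in control and 3.39, 6.95, 2.58 and 8.91 in IUGR. The differences were 2.75 ± 1.20 (SE) for RGS4 and 2.41 ± 1.40 (SE) for RGS5, with limma adjusted p values of 0.326 and 0.457. Without IUGR replicates 2 and 4 they were 0.63 ± 0.45 (SE) and -0.06 ± 0.33 (SE), so the group differences of both genes rest on those arrays.

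The marker lists differed in these arrays. The sum over mesothelial and epithelial markers was 8909 and 13671 in IUGR replicates 2 and 4, against at most 195 in the other 6 arrays. All 9 of these markers lay above background in IUGR replicate 4 and 7 did in IUGR replicate 2, against 5 to 7 in the other arrays. The sum over 13 smooth muscle and pericyte markers was 6604 and 1405 in IUGR replicates 2 and 4, and it was highest, at 16428, in control replicate 4. RGS5 in control replicate 4 was 3.49, at the edge of background. The part of the mesothelial signal in the RGS4 and RGS5 values was not tested.

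RGS16, an inducible regulator of Gαi and Gαq, was high in other arrays. It was 7.35 and 6.81 in IUGR replicates 1 and 3, but 3.84 and 3.47 in IUGR replicates 2 and 4. In control replicates 1 to 4 it was 3.10, 3.82, 3.91 and 5.37. The difference over all arrays was 1.32 ± 1.03 (SE; limma adjusted p = 0.592). Without IUGR replicates 2 and 4 it was 3.03 ± 0.66 (SE; limma adjusted p = 0.254), and without control replicate 4 as well it was 3.47 ± 0.34 (SE; limma adjusted p = 0.0411). The arrays left out held the lowest IUGR values and the highest control value of RGS16, so the difference was bound to grow. The last fit set control replicates 1 to 3 against IUGR replicates 1 and 3, and 325 of 14577 genes passed in it. ABCC9, a potassium channel subunit on the pericyte list, was 8.44 and 7.29 in IUGR replicates 1 and 3. It was 7.63 in control replicate 4 and at most 3.99 elsewhere, and was picked from 13 markers after its values were seen. The sum over that list was 9675 and 8660 in IUGR replicates 1 and 3 and 6604 and 1405 in IUGR replicates 2 and 4. In control replicate 4 the sum was 16428, and in the other controls 1483 to 3332. The relation of ABCC9 to RGS16 was not tested.

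**Figure D4:**
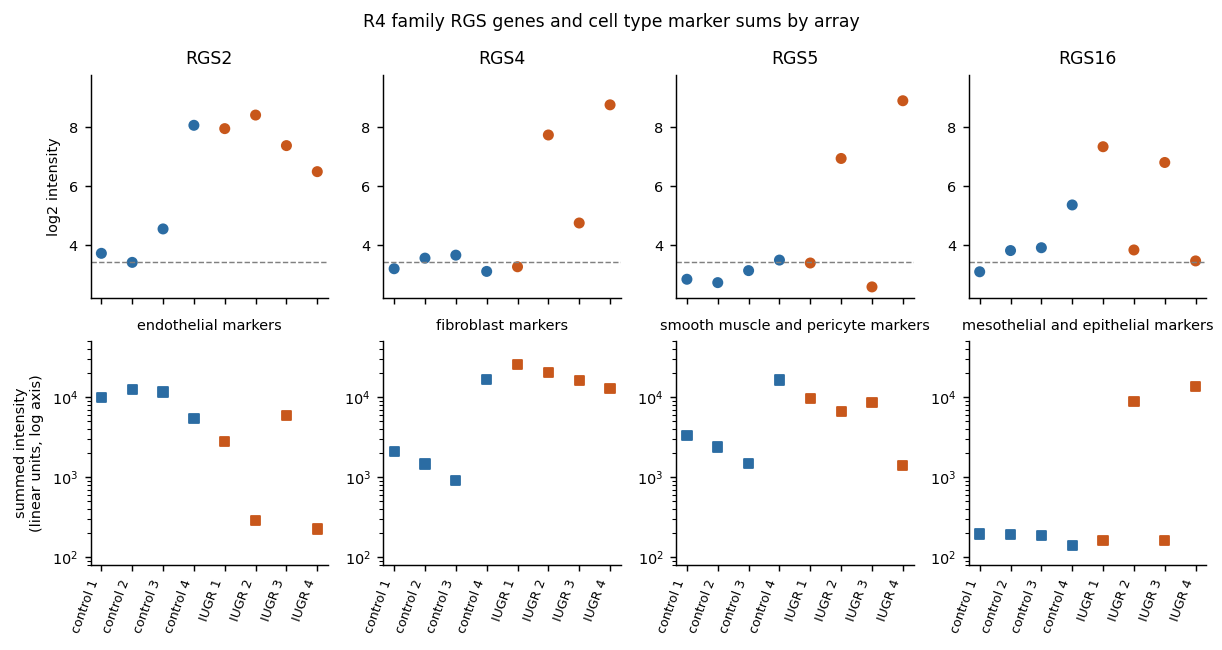
The upper panels give log2 intensity of 4 RGS genes for each array, with controls in blue, IUGR in orange and the olfactory receptor level dashed. The lower panels give the summed linear intensity of the marker lists on a log axis, and RGS4 and RGS5 are highest in IUGR replicates 2 and 4, where the mesothelial and epithelial sums are 8909 and 13671.

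The remaining RGS families showed smaller differences. RGS19, of the RZ family and also named GAIP, acts on the Gαi class. It was 6.87, 7.17, 7.34 and 7.39 in control replicates 1 to 4, and 7.04, 6.32, 6.68 and 6.55 in IUGR replicates 1 to 4. IUGR replicate 1 lay above control replicate 1, and the other IUGR cultures lay below every control. The difference was -0.55 ± 0.18 (SE; limma adjusted p = 0.223), and -0.34 without IUGR replicates 2 and 4. RGS20, a related gene, was 4.00 ± 0.52 and 3.61 ± 0.26, and RGS17 exceeded background on 1 array.

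In the R7 family, whose proteins need GNB5 to be stable, no member had an unadjusted p under 0.05. RGS7 was 7.70, 7.42, 5.76 and 7.14 in control replicates 1 to 4 and 7.51 ± 0.11 in IUGR cultures. RGS9, the photoreceptor and striatal member, was 4.70 ± 0.34 and 4.57 ± 0.28, and RGS11 was 4.30 ± 0.48 and 4.02 ± 0.31. The intervals of the differences were -0.45 to 1.46 for RGS7, -0.62 to 0.36 for RGS9 and -0.92 to 0.36 for RGS11. In the R12 family, RGS12 was 5.51 ± 0.33 and 5.12 ± 0.34 and RGS14 was 3.57 ± 0.46 and 3.51 ± 0.46. RGS10, known from microglia and platelets, was 3.96, 3.43, 3.32 and 3.44 in control and 4.80, 3.30, 4.25 and 4.57 in IUGR replicates 1 to 4, higher in 3 of the 4 IUGR cultures than in any control (limma adjusted p = 0.381).

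**Figure D5:**
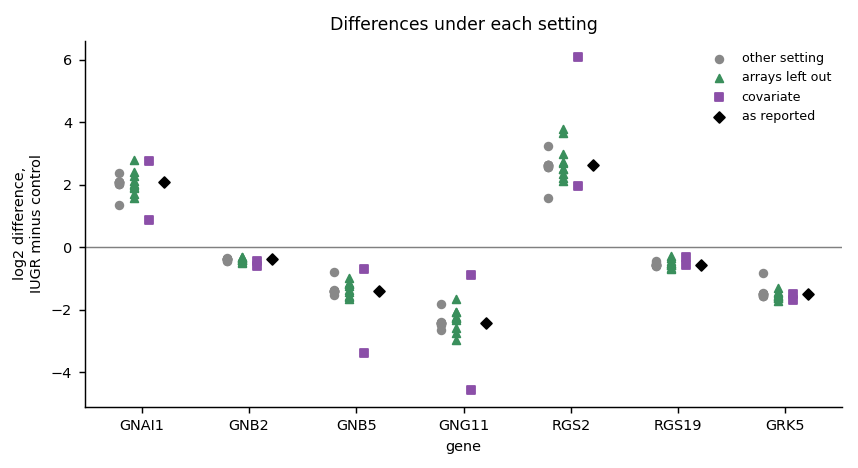
The vertical axis is the log2 difference between IUGR and control for the 7 members with an unadjusted p under 0.05, under each setting of the analysis. Each gene stays on one side of 0 under the settings run, from -1.71 to -0.82 for GRK5 and from 1.58 to 6.08 for RGS2.

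Genes on either side of the G proteins were counted in the same fit. Of 49 measured vascular G protein-coupled receptors, EDNRA, the endothelin A receptor, rose (limma adjusted p = 0.0443) and no other passed. That call was lost in 13 of 23 alternative settings, applied to EDNRA after its value was seen, and over all 23 the limma adjusted p ran from 0.0111 to 0.585. It was 0.0517 with all rows tested, and with 1 array left out the call held only without control replicate 4 (limma adjusted p = 0.0127) or IUGR replicate 2 (limma adjusted p = 0.0343), with values up to 0.173 without control replicate 2. With an unadjusted p under 0.05 there were 2 higher and 8 lower in IUGR (20.4% against 15.9% of all genes). The thrombin receptor F2R was 8.55, 9.75, 7.73 and 7.44 in control and 5.18, 3.75, 6.89 and 4.41 in IUGR. The chemokine receptor CXCR4, which couples to the Gαi class, differed by -4.60 ± 0.87 (SE; limma adjusted p = 0.0989).

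Among 21 effectors none passed, and 3 had an unadjusted p under 0.05, 1 of them higher in IUGR. That is 14.3%, against 15.9% of all genes. The groups did not overlap for those 3, again 14.3% of the list against 8.65% of all genes. ADCY4, an adenylyl cyclase that Gαs and Gβγ stimulate together, was 4.58 ± 0.58 in control and 3.50 ± 0.35 in IUGR. Its lowest control value, 3.769, barely exceeded its highest IUGR value, 3.766, and both were near the background level of 3.44. PREX1, a Rac exchange factor driven by Gβγ, was 6.40 ± 0.83 and 4.97 ± 0.53. Its lowest control value was 5.61, beside a highest IUGR value of 5.52. ADCY7, another cyclase, was 3.55 ± 0.13 and 4.71 ± 1.00, highest at 6.17 in IUGR replicate 2. Its highest control value was 3.75 and its lowest IUGR value 4.00. The count of 3 without overlap thus rests on narrow gaps.

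Among 25 other regulators none passed, and 4 had an unadjusted p under 0.05, all lower in IUGR, a share of 16.0% beside 15.9% of all genes. RGS7BP, the membrane anchor of the R7 RGS and GNB5 complex, was 8.36, 8.43, 5.81 and 4.14 in control and 3.45, 3.16, 3.51 and 2.85 in IUGR replicates 1 to 4, so that IUGR values lay at background. The difference was -3.44 ± 0.98 (SE; limma adjusted p = 0.177). ARRB1, beta-arrestin 1, which binds receptors that GRKs have phosphorylated, was 9.55, 9.52, 9.17 and 7.68 in control and 5.90, 5.76, 7.96 and 3.99 in IUGR. It overlapped through IUGR replicate 3 and differed by -3.08 ± 0.86 (SE; limma adjusted p = 0.170). CCDC88A, a Gαi activator also named girdin, differed by -0.87 ± 0.31 (SE; limma adjusted p = 0.245). The median differences were -0.13 for receptors, 0.08 for effectors and -0.07 for regulators, beside 0.00 for all genes.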

How the data were processed

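Total RNA of 8 cultures was measured on 1-colour arrays, and the labels' protocols name Trizol extraction and biotin cRNA labelling by an Affymetrix protocol. The table the authors deposited holds 1 intensity per gene and array, taken as linear because it spans 2.77 to 8705. The background correction, probe summary and normalization behind it are not given in the sources used here. No sequence or coordinate is reported.

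A RefSeq table (assembly ARS-UI_Ramb_v3.0) gave gene names: 798 rows had no symbol and 5 were merged, which left 14577 genes. All 51 members matched a symbol in that table. Intensities were raised to their 10th percentile before log2. Groups follow the treatment label, and replicate numbers are names only. The test was limma 3.58.1 in R 4.3.3, two-sided with no covariate. The code was also run on simulated data, with the spread within groups capped below that of members such as RGS2 and RGS4. That run therefore does not measure error rates for such members. Each title carries its own sheep identifier.

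Members and lists were chosen with earlier results of these data known. Members were described array by array where the unadjusted p was under 0.05 or the groups did not overlap. A further set with known vascular roles (GNAS, GNAI2, GNAQ, GNA11, GNA12, GNA13, GNA14, GNB1, GNG11, RGS2, RGS4, RGS5, RGS16, GRK2 and GRK5) was named wherever measured, as were up to 3 genes of each pathway list with the smallest p. Other values by array were chosen for description after they were seen. Leukocyte and platelet marker lists were also counted: the sums were 261 to 1491 over 10 leukocyte markers and 36.0 to 48.7 over 4 platelet markers. Alternatives covered normalization, floor, filter, prior, array weights, covariates, a title number block and arrays left out.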

Additional observations from a re-analysis of the deposited data

Results flagged for a closer look

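In 2 of 80 groups of 4 arrays, 1 array lay far from the other 3 by Dixon's criterion, which chance meets in about 1 of 20 groups. GNA12 was 8.16 in control replicate 4 and 8.44 to 8.47 in the other controls. RGS7 was 7.67 in IUGR replicate 2 and 7.44 to 7.47 in the other IUGR cultures.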

How the results depend on the processing

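No member passed in the reported analysis. GRK5 alone passed with log2(value + 1), with genes above the olfactory receptor level on 4 arrays (fewer genes tested), with array weights and at a threshold of 0.10, each a count of 1. More of all genes passed too: 61 with log2(value + 1), 146 of 11489 with the filter and 74 with array weights, against 10 in the reported analysis. Leaving out 1 array gave 0 to 3 members, with 3 (GNAI1, GRK5 and RGS2) only without control replicate 4, where 369 of all 14577 genes passed. Leaving out control replicate 4 and IUGR replicates 2 and 4 gave 2 (RGS16 and RGS2), where 325 of all genes passed. Members with an unadjusted p under 0.05 numbered 4 to 9 (7.84% to 17.6%) when 1 array was left out, beside 11.8% to 18.4% of all genes. They were 3 (5.88%, beside 7.44% of all genes) with the endothelial score as a covariate (GRK4, GRK5 and RGS16) and 1 at a level of 0.01. Members whose groups did not overlap numbered 2 of 51 after quantile normalization and after median centring (GNB5 and GRK5). Of all genes 9.06% and 9.10% did so there. With 1 array left out the members numbered 2 to 7, beside 10.6% to 17.7% of all genes. There were 7 without control replicate 4 and 6 without IUGR replicate 1, beside 17.7% and 12.8%. There were 9 without IUGR replicates 2 and 4, and 14 without control replicate 4 as well, beside 19.5% and 34.1%. As a share, the members lay below all genes in each of these settings. GRK5 was among the members without overlap in each of these settings.

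Of 18 differences recomputed under up to 23 settings, 413 values in all, 396 kept their direction and side of the threshold, 8 newly passed and 9 reversed. Reversed values were, with the endothelial score as a covariate, 0.00967 for GNA13, -0.21 for GNA14, 0.16 for GNAI2, -0.27 for RGS4 and -1.69 for RGS5. GNB1 was 0.34 with passage as a covariate and -0.104 to 0.00458 when 1 array was left out (0.00116 without IUGR replicate 1), and RGS5 was -0.0616 without IUGR replicates 2 and 4. For these the cause was not tested. The GRK5 difference was -0.82 with log2(value + 32), which shrinks differences of dim genes by construction. No scaling moved the median gene by more than 0.05. No paired analysis was possible because the labels give the groups no shared replicate numbers. Without replicate probes or detection calls, values near 3.44 cannot be told from background.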

Other observations

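Several members are neighbours on the sheep genome by the gene order of the RefSeq table (ARS-UI_Ramb_v3.0), and neighbours did not always share a pattern. RGS4 and RGS5, with 1 protein-coding gene between them, were both highest in IUGR replicates 2 and 4. RGS16 and RGS8 lie side by side, and RGS16 reached 7.35 in IUGR replicate 1 where RGS8 was 3.17. RGS2 is followed by RGS13, RGS1, RGS21 and RGS18 with 0 genes between each pair. RGS2 was up to 8.42 while those 4 stayed at or below background on every array. GNAQ and GNA14 are adjacent, and in IUGR replicate 2 GNA14 was 5.39, against at most 3.48 in control, while GNAQ was 7.44, against at most 7.17 in control. GRK5 and RGS10 have 1 gene between them, and their group means differed in opposite directions, by -1.50 and 0.69. These are descriptions over 8 arrays with no test.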
